A study of Mus musculus with 26 samples.

Results

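Large islets of newborn mice were compared with islets of adult mice by RNA sequencing, across all genes measured. The comparison holds 13 of the 26 libraries of the series: the 7 libraries of large neonatal islets from batches 2 and 3, and all 6 adult libraries. They were chosen by their labelled age, islet size and batch, because batch 1 has no adult library. The large neonatal libraries are replicates 14 to 20 and come from C57BL/6J mice at postnatal day 5, whose islets had been sorted by size. The adult libraries are replicates 1 to 6 and come from C57BL/6J mice aged 2.5 months. The labels name no treatment and no mutation for either group. Batch 2 holds large replicates 17 to 20 and adult replicates 1 to 4, and batch 3 holds large replicates 14 to 16 and adult replicates 5 and 6. Each library pools hand-picked islets, total RNA was used, and ribosomal RNA was removed. Nothing in the labels says that libraries come from separate animals, so p-values measure the spread between libraries, which may be technical.

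Pancreatic islets are small organs made of β cells, which release insulin, α cells, which release glucagon, and rarer δ, PP and ε cells, with blood vessels, connective tissue, nerves and macrophages between them. In newborn rodents β cells still divide and respond poorly to glucose. Over the weeks around weaning division slows, and the cells take on the metabolic, ion channel and secretory genes of mature β cells while shutting off a set of genes that would blur glucose sensing.

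Values are FPKM, fragments per kilobase of gene, scaled to library size, which allow levels to be compared between genes. Of 13641 genes listed, 12890 had at least 1 FPKM in at least 6 of the 13 libraries and were tested. Differences are large neonatal minus adult in mean log2(FPKM + 1), with batch as a term and the standard error (SE) of limma, and a gene was called at a Benjamini-Hochberg adjusted p under 0.05. Adding 1 understates differences of genes near or below 1 FPKM. Differences within a batch are between the mean log2(FPKM + 1) of its libraries.

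The libraries were deep and matched their labelled tissue. Fragment totals over the listed genes were 21500000 to 32000000 in large and 17300000 to 27400000 in adult libraries, lower in batch 3 for both. All 12 endocrine cell markers were kept, and their summed FPKM was 125000 to 171000 in large and 164000 to 207000 in adult libraries. Markers of other cells stood beside them. The 18 endothelial markers summed to a median of 659 FPKM in large and 215 in adult libraries, without overlap. The 19 mesenchymal markers listed summed to 471 to 2030 and 114 to 211 FPKM, and the 5 erythroid ones to 398 to 958 and 7.52 to 86.8 FPKM. Acinar markers, 14 listed, varied widely in both groups, from 70.2 to 4610 and from 10.5 to 4820 FPKM. In such bulk RNA, fewer cells of a type and less RNA per cell cannot be told apart.

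Some libraries stood apart. The first principal component took 69.2% of the variance and separated the ages. The second took 15%, and adult replicates 5 and 6 lay at -40.05 and -40.33 on it, against 16.82 to 21.69 for the other adult libraries. Large replicate 14 lay at 25.9, against -7.595 to 6.789 for the other large libraries. Its FPKM over all genes summed to 539491, against 414907 to 460437 in the other large libraries and 430358 to 479442 in adult ones. Replicates 14 and 16 also held most of the extreme single values among the genes named here. Sex-linked transcripts varied among the libraries, and none of the 8 listed genes was called over both batches, although batch 3 alone called 4 higher and 2 lower and median-of-ratios rescaling called 2 lower. Xist, made from the inactive X chromosome, was at 31.4 to 72.9 FPKM in every large library, beside 2.09 to 10.5 FPKM of the Y-linked Ddx3y. In adult replicates 1 and 2 Xist was at 0.0183 and 0.0165 FPKM and Ddx3y at 29.0 and 27.2 FPKM. Adult replicate 3 had 35.5 FPKM of Xist with 1.84 of Ddx3y, and adult replicates 4 to 6 had 84.6 to 122.0 FPKM of Xist with Ddx3y listed at 0. Its part in the results was not tested.

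Large neonatal and adult islets differed in 7808 genes (60.6% of those tested). Of these, 5505 (42.7%) were higher and 2303 (17.9%) lower in large neonatal islets. At least 1 on the log2 scale was reached by 1511 higher (11.7%) and 224 lower genes (1.74%). Every large library lay above every adult library in 3677 genes (28.5%) and below in 1084 (8.41%). Without large replicates 14 and 16, 6104 genes were higher and 2461 lower.

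The share of higher genes rested on the scaling. Over all genes the median difference was 0.156 in the deposited scaling. It was -0.0387 with median-of-ratios size factors and -0.0651 with quantile normalization. Higher genes made up 70.5% of calls as deposited, 48.1% (3798 higher, 4091 lower) after the first rescaling and 45.0% (3620 and 4416) after the second. Rescaled without the 100 highest genes, they made up 53.7% (3991 and 3437). Counts of members in a gene list are therefore to be read against 42.7% higher and 17.9% lower over all genes. The median difference of the members is given with them, in most cases minus that of all genes, and counts after median-of-ratios rescaling are added where they alter the balance.

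The batches differed in how large the age difference was. In 5132 genes (39.8%) the difference between batches passed the test, with only 2 adult libraries in batch 3. Fitted alone, batch 2 gave 6825 higher and 2823 lower genes, and batch 3 gave 3853 and 1810. Both called 3110 genes higher (24.1%), 45.6% of those of batch 2 and 80.7% of those of batch 3. Both called 967 lower (7.50%), 34.3% and 53.4%. Opposite calls were made in 591 genes (4.58%). Of the genes with differences of at least 1 in the fit of both batches, most were called the same way in each batch alone. These were 1445 of the 1511 (11.2% of all tested) and 176 of the 224 (1.37%). Since the same libraries chose these genes, this is not a separate test of them. Without adult replicate 6, both batches called 1495 higher and 311 lower, and without adult replicate 5, 1554 and 353.

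**Figure D1:**
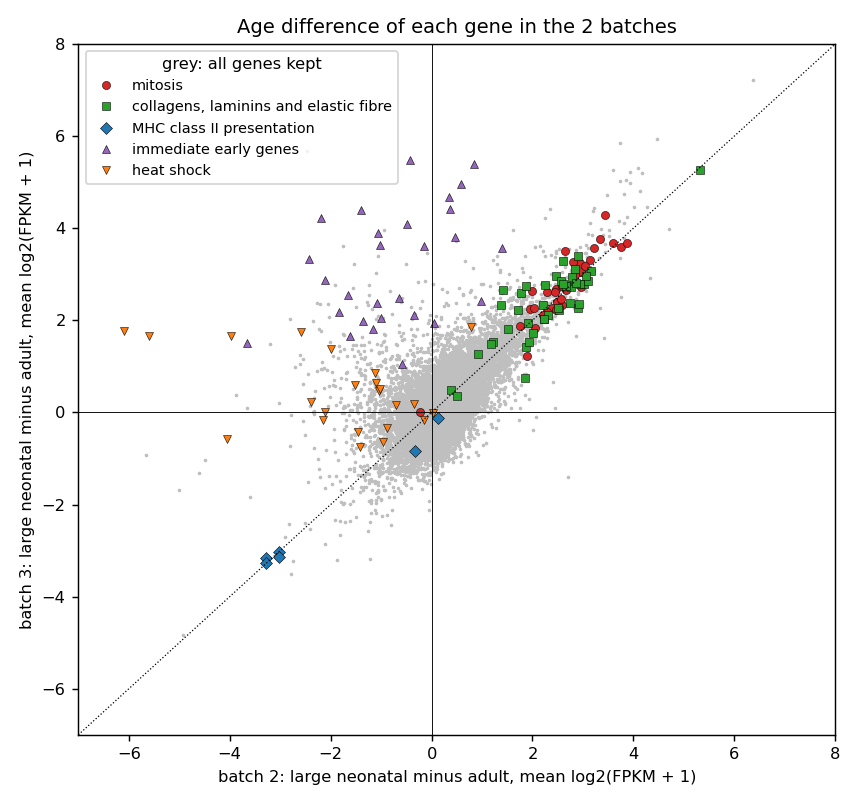
Each grey point is 1 of the 12890 genes tested, placed by its large neonatal minus adult difference in batch 2 (horizontal) and in batch 3 (vertical), both in mean log2(FPKM + 1), with 5 gene lists in colour. Mitosis and matrix genes lie near the dotted line of equal differences, while immediate early genes lie above it, with list medians of -0.83 in batch 2 and 3.10 in batch 3.

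**Figure D2:**
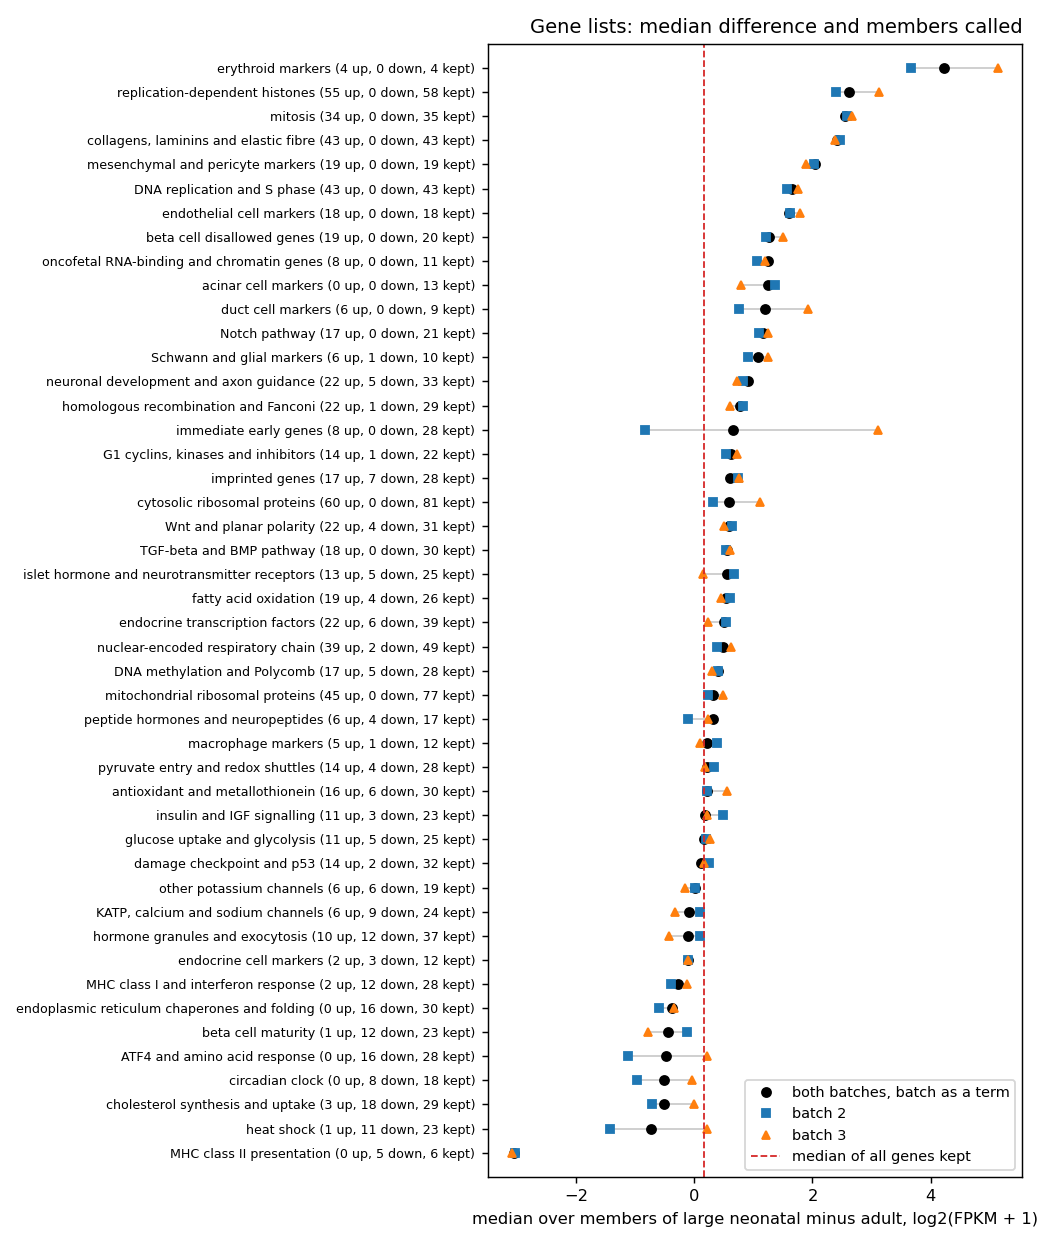
Median large neonatal minus adult difference in log2(FPKM + 1) over the members of each gene list, from the fit of both batches (circles) and within batch 2 (squares) and batch 3 (triangles). Labels give the members higher (up), lower (down) and kept. The dashed line is the median of all genes, 0.16. Erythroid, histone, mitosis and matrix lists lie farthest to the right, and MHC class II to the left.

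Fetal growth genes were among the most raised in large neonatal islets, and H19 showed the largest difference of all called genes. H19, an imprinted noncoding RNA (mm10, chromosome 7, 142575529 to 142578143, minus strand), was at 48.3, 89.3 and 233 FPKM as lowest, median and highest of the 7 large libraries. The highest of the 6 adult libraries held 0.0253 FPKM, and their median was 0. The groups lay far apart, and H19 was higher by 6.69 ± 0.24 (SE, limma adjusted p = 1.16e-10). Igf2, the growth factor gene next to it (142650766 to 142666816), ran from 39.7 through a median of 59.6 to 131 FPKM in large and from 2.10 through 2.47 to 2.97 in adult libraries. It too did not overlap and was higher by 4.39 ± 0.21. Within large neonatal islets both genes were highest in replicate 14, and lowest in a batch 2 library.

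Of 28 imprinted genes, which are expressed from only 1 parental copy, 17 were higher and 7 lower, with a median 0.45 above that of all genes. Dlk1, a Notch-like membrane protein of immature cells, was at 15.4, 31.3 and 45.6 FPKM in large and 0.240, 0.362 and 0.555 in adult libraries. It was higher by 4.33 ± 0.20. Mest, a placental and fetal hydrolase gene, was higher by 3.39. In contrast Mirg, a noncoding host of microRNAs in the same imprinted region as Dlk1, differed by -1.43 ± 0.20, at 2.50, 4.14 and 6.00 FPKM against 9.58, 12.0 and 22.5. So neighbours on the chromosome lay on opposite sides, with no overlap of the groups in either gene. Among 11 oncofetal genes, active in embryos and again in tumours, 8 were higher and none lower, with a median 1.08 above all genes. Igf2bp3, which binds Igf2 messenger RNA, held 5.22, 5.61 and 5.89 FPKM in large libraries and at most 0.0175 in adult ones. It spread very little among the large libraries and was higher by 2.70 ± 0.06. Gpc3, a cell surface proteoglycan, and Mycn, a growth-driving transcription factor, were higher by 2.78 and 1.52.

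**Figure D3:**
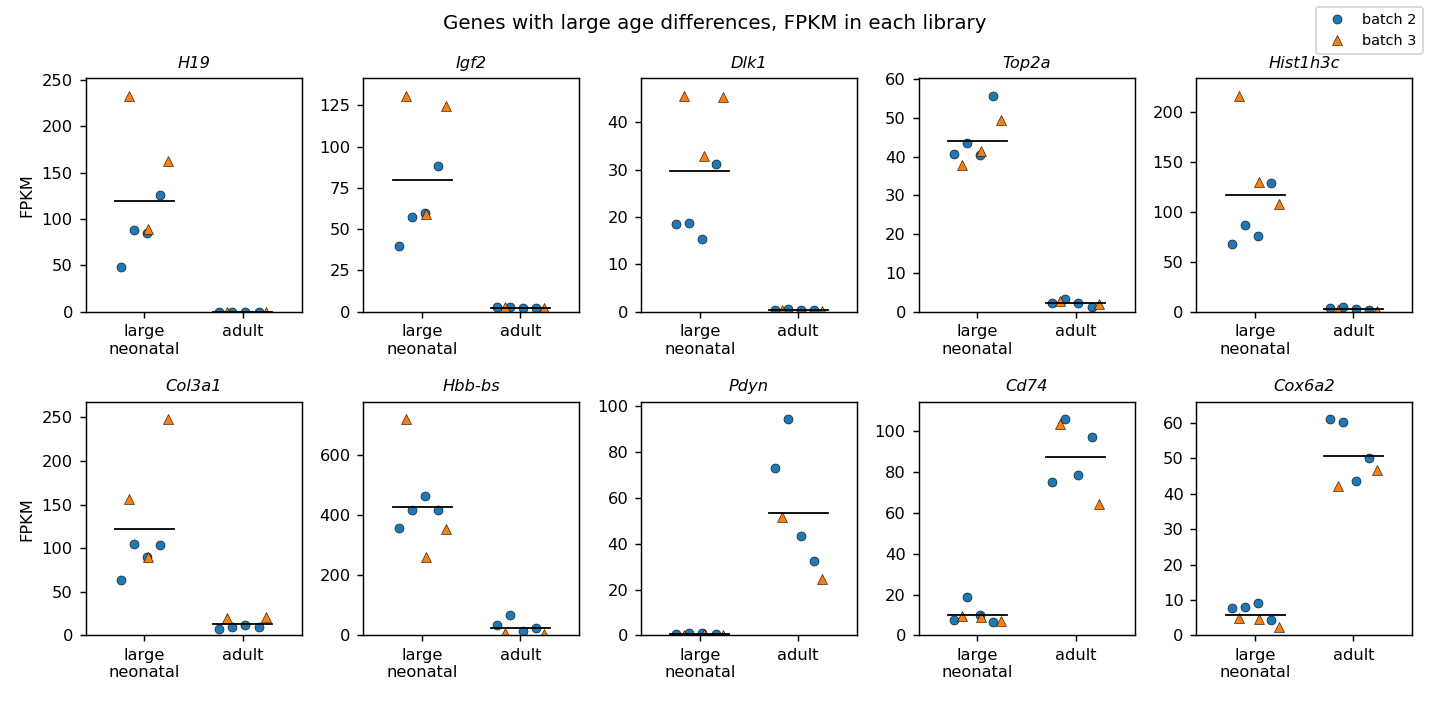
FPKM of 10 genes in each of the 7 large neonatal and 6 adult libraries, each panel with its own linear axis from 0. Circles are batch 2, triangles batch 3, and lines are group means. In all 10 panels the groups do not overlap. The top row and Col3a1 and Hbb-bs are higher in large neonatal islets, and Pdyn, Cd74 and Cox6a2 higher in adult ones.

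Cell division genes were higher almost throughout. All 43 genes of DNA replication kept were higher, with a list median of 1.66, and so were 34 of 35 mitosis genes, with 2.55, against 0.16 for all genes. In batch 2 the mitosis median was 2.58 and in batch 3 2.67. Top2a, whose enzyme untangles chromosomes, was at 37.9, 41.5 and 55.7 FPKM in large and 1.16, 2.27 and 3.22 in adult libraries. It was higher by 3.80 ± 0.14 (adjusted p = 1.00e-10). Mki67, the gene of the division marker Ki-67, ran from 29.0 through 37.6 to 53.6 FPKM in large and from 1.40 through 2.04 to 3.01 in adult libraries. The lowest large library was thus well above the highest adult one. Ube2c and Cdc20, parts of the machinery that ends mitosis, were higher by 3.75 and 3.06, and the cyclin gene Ccna2 by 3.62. Of S phase genes, the largest differences were 3.14 for Uhrf1, which keeps DNA methylation after replication, 2.89 for Tk1, a thymidine kinase, 2.78 for Mcm3 and 2.69 for Mcm5, subunits of the replicative helicase.

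Promoters of division genes carry known sequence elements, and these were looked for in the 250 bases before the gene start. The search covered 7946 of the genes tested, each with 1 start listed in RefSeq (GRCm38.p6). Genes of a single chromosome were left out, so counts and percentages of genes with a match refer to the genes searched. Both strands were read, and overlapping matches were counted once per gene. The letters TTTGAA, core of the cell cycle homology region, stood within 100 bases of the start in 7 of 27 mitosis genes (25.9%) and in 2.76% of all genes. CCAAT, bound by NF-Y, stood within 250 bases in 20 of 27 (74.1%), in 18 of 30 replication genes (60.0%), in 11 of 20 ATF4 response genes (55.0%) and in 36.8% of all. TTTCCCGC or TTTGGCGC, forms of the E2F site, stood within 250 bases in 7 of 30 replication genes (23.3%), in 0 of 27 mitosis genes and in 2.86% of all. A match describes the letters only. The 120 bases before the start are shown for 3 mitosis genes that hold the first pair of elements and 2 replication genes that hold the third, 5′ to 3′ on the gene's strand. Capitals mark the first pair of elements in the mitosis genes and only the third in the replication genes, on either strand (TTCAAA and ATTGG are TTTGAA and CCAAT on the other strand).
Top2a, chr11:99024190-99024309, minus strand: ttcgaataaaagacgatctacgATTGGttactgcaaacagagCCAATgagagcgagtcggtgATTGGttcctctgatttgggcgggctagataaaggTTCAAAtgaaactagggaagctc
Cdc20, chr4:118437344-118437463, minus strand: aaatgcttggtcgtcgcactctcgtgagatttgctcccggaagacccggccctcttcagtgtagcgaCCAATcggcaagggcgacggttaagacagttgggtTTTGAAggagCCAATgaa
Ube2c, chr2:164769809-164769928, plus strand: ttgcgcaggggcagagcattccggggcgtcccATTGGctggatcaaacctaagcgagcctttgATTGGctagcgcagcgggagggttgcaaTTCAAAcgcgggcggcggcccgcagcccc
Mcm6, chr1:128359706-128359825, minus strand: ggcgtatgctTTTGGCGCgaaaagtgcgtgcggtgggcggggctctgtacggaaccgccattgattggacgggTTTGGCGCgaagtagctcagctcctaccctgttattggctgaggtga
Dtl, chr1:191575545-191575664, minus strand: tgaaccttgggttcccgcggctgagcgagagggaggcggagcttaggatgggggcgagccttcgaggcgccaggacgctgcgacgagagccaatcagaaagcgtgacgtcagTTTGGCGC

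The 3 mitosis genes shown differed more than the 2 replication genes. The mitosis genes were picked by name and the replication genes by their letters and size of difference, so this does not compare promoter types. Cdc20 was at 8.92, 12.8 and 18.5 FPKM in large and 0.232, 0.643 and 1.02 in adult libraries. Mcm6 was at 19.0, 21.6 and 28.2 against 4.21, 4.96 and 6.26, higher by 1.93 ± 0.09. Dtl, which helps limit replication to once per cycle, was higher by 1.76 ± 0.08. None of these groups overlapped.

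Histone genes that are switched on in S phase followed. Of 58, 55 were higher and none lower, with a median 2.46 above all genes. Hist1h3c ran from 68.0 through 109 to 217 FPKM in large and from 1.20 through 2.25 to 4.41 in adult libraries, a difference of 5.02 ± 0.28. Hist1h2bm was higher by 4.34. Copies of these genes are nearly identical, so the split of reads between them is uncertain. Their messages lack a poly(A) tail, and ribosomal RNA removal, unlike poly(A) selection, keeps such RNA.

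Regulators of entry into the cycle were less uniform. Of 22 G1 genes, 14 were higher and 1 lower, with a median 0.46 above all genes. Ccnd1 and Ccnd2, D-type cyclins abundant in β cells, were at medians of 49.3 and 210 FPKM in large and 47.0 and 273 in adult libraries. Neither was called (0.03, adjusted p = 0.816 and -0.35, adjusted p = 0.0504). Ccnd2, close to the threshold, passed as lower under each of the 3 rescalings and in several other settings. Among these were a pseudocount of 0.1, no batch term, voom and batch 3 alone (-0.82), but not batch 2 alone. Inhibitors of the cycle moved both ways. Cdkn1c, an imprinted inhibitor, was at 8.49, 13.9 and 38.7 FPKM against 1.06, 1.35 and 1.55, higher by 2.69 ± 0.25, and Cdkn2c was higher by 1.94. Cdkn2b differed by -1.19 ± 0.17, at 2.82, 3.08 and 4.25 FPKM against 4.99, 11.6 and 12.0. The groups overlapped in neither, but batch 3 alone did not call Cdkn2b. Cdkn1a, a p53 target, turned with the batch: -1.74 in batch 2 and 1.68 in batch 3.

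Repair genes are given because the title of the series names DNA damage responses. Of 29 genes of homologous recombination and the Fanconi pathway, 22 were higher and 1 lower, with a median 0.63 above all genes. Brca1, which directs repair of broken DNA, had medians of 3.56 FPKM in large and 0.906 in adult libraries. It was higher by 1.36 ± 0.10, with no overlap. Ube2t was higher by 1.99, while Rad52 differed by -0.42. Of 32 checkpoint and p53 genes, 14 were higher and 2 lower, with a median 0.04 below all genes (-0.04). That share of higher genes was close to the 42.7% over all genes, and median-of-ratios rescaling gave 11 higher and 10 lower. The higher ones were led by H2afx (2.22), the histone marked at breaks, Clspn (2.07), a replication checkpoint mediator, and Chek2 (1.58), a checkpoint kinase. Trp53 itself was at 18.5, 24.1 and 26.7 FPKM against 11.2, 16.8 and 19.4, higher by 0.54 ± 0.13 with overlapping groups. Ccng1, a p53 target, differed by -0.72 ± 0.08. Atm, the kinase that signals breaks, was 0.42 in batch 2 and -1.08 in batch 3.

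Of 28 DNA methylation and Polycomb genes, 17 were higher and 5 lower, with a median 0.24 above all genes. Median-of-ratios rescaling gave 12 higher and 7 lower. Hells, a remodeller needed for DNA methylation, was higher by 2.26. Ezh2, the Polycomb methyltransferase, ran from 10.3 through 10.9 to 13.3 FPKM in large and from 2.43 through 2.65 to 3.81 in adult libraries and was higher by 1.70 ± 0.09. Polycomb subunits differed in direction: Cbx2 was higher by 1.47, and Cbx7 differed by -0.91 ± 0.09, with 5.73, 6.05 and 7.45 FPKM against 10.9, 12.6 and 15.6.

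Insulin transcripts made up a smaller part of the large neonatal libraries. Ins1 and Ins2 together held 24.2% ± 2.68 of all FPKM in large (SD, n = 7) and 31.1% ± 3.35 in adult libraries (n = 6). The difference of -6.95 percentage points passed an exact two-sided permutation test within batches (p = 0.00286, adjusted over 3 shares 0.00429). Within batch 2 it was -5.92 (exact p = 0.0286). Within batch 3 it was -8.67 (exact p = 0.2), where 0.1 is the smallest possible. The fall was in Ins2. Ins1 was at 43140, 48077 and 55655 FPKM in large and 38218, 49228 and 56762 in adult libraries, a difference of 0.00 ± 0.15 (adjusted p = 0.998). Ins2 was at 48684, 59771 and 77730 against 76973, 97593 and 106980, a difference of -0.65 ± 0.16 (adjusted p = 0.00314), and overlapped in 1 large library only. Quantile normalization, which gives every library the same highest values, left a difference of 0.00, and batch 3 alone did not call it (-0.60, adjusted p = 0.275). The paired genes share much of their coding sequence, so reads may be split with error. Iapp, the amyloid peptide released with insulin, differed by -0.55 ± 0.17. That call was lost with quantile normalization (-0.10, adjusted p = 0.522) and in batch 3 alone (-0.84, adjusted p = 0.121). The 100 highest genes held 46.3% ± 2.69 of FPKM in large and 53.4% ± 1.79 in adult libraries, a difference of -7.36 within batches (exact p = 0.00143, the smallest possible).

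Other islet hormones had no common direction. Glucagon held 4.02% ± 0.746 of FPKM in large and 5.24% ± 1.35 in adult libraries, and the difference of -1.21 did not pass (exact p = 0.0771, adjusted 0.0771). It was -1.60 (exact p = 0.0171) without adult replicate 1. Sst of δ cells and Ppy of PP cells differed by -0.22 and -0.27, neither of them called (adjusted p = 0.244 and 0.23). All 3 rescalings called both lower (Sst -0.37 to -0.45, Ppy -0.45 to -0.58). Gcg, called lower by neither batch alone (-0.40 and -0.38), was called lower after median-of-ratios rescaling (-0.61), without the 100 highest genes (-0.57) and without large replicate 14 (-0.48). Pyy, peptide YY, was at 4592.5, 5751 and 7290.1 FPKM in large and 1702.5, 2202.6 and 2509.4 in adult libraries, higher by 1.39 ± 0.13. Ghrl, the ghrelin gene of ε cells, ran from 117 through 170 to 427 FPKM against 6.84, 10.3 and 17.4, higher by 3.94 ± 0.28. Gast, gastrin, was higher by 2.64 ± 0.30. None of these 3 genes overlapped, and replicate 14 was the highest large library for Ghrl and Gast. Pdyn, the prodynorphin gene, had the most negative difference of all called genes. It was at 0.205, 0.534 and 1.21 FPKM in large and 24.7, 47.5 and 94.3 in adult libraries, a difference of -4.88 ± 0.23 (adjusted p = 5.59e-10). The groups lay far apart in both batches (-4.92 in batch 2, -4.82 in batch 3).

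Of 23 genes of β cell maturity, 12 were lower and 1 higher, with a median 0.61 below all genes (-0.61). Over the list, the median was -0.12 within batch 2, against -0.78 within batch 3. Ucn3, urocortin 3, a hallmark of mature β cells, was at 97.2, 129 and 166 FPKM in large and 257, 269 and 359 in adult libraries. It differed by -1.20 ± 0.14 (adjusted p = 5.2e-06), without overlap. Cox6a2, a subunit of respiratory complex IV found in mature islets and muscle, ran from 2.42 through 4.96 to 9.19 FPKM in large and from 42.3 through 48.3 to 61.0 in adult libraries, a difference of -2.93 ± 0.17. Prlr, the prolactin receptor, was at 6.69, 13.7 and 20.6 FPKM against 42.3, 46.5 and 94.8. Its adult levels were 80.0 to 94.8 in batch 3 and 42.3 to 47.1 in batch 2, and the difference was -3.18 and -1.23. Ero1lb, an oxidase that helps fold proinsulin, and Gad1, which makes GABA, differed by -1.79 and -1.49. Ffar1, a fatty acid receptor, was the member that was higher (0.63 ± 0.17). It differed by 1.05 in batch 2 and -0.07 in batch 3.

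Transcription factors of the endocrine lineage were more often higher. Of 39, 22 were higher and 6 lower, with a median 0.35 above all genes. Mafa, a factor of mature β cells, was at 84.3, 114 and 154 FPKM against 111, 136 and 148 and was not called (-0.20 ± 0.14, adjusted p = 0.232). It was called lower in batch 2 alone and after median-of-ratios rescaling. Pdx1, the master regulator of the pancreas, was higher by 0.57 ± 0.11 and Isl1 by 0.61 ± 0.16, both with overlapping groups and only in batch 2 when the batches were fitted alone. Nkx6-1 differed by 0.02 ± 0.09 (adjusted p = 0.858). Progenitor factors were clearly apart. Sox9 of pancreatic progenitors and ducts was at 3.58, 6.37 and 13.7 FPKM against 0.602, 0.827 and 1.10, higher by 1.91. Sox4 (1.87), Sox11 (1.72) and Pou3f4 (1.88) of the developing endocrine lineage were higher too. Thrb, a thyroid hormone receptor, differed by -1.17 ± 0.08, at 1.13, 1.53 and 1.73 FPKM against 4.15, 4.55 and 5.21.

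**Figure D4:**
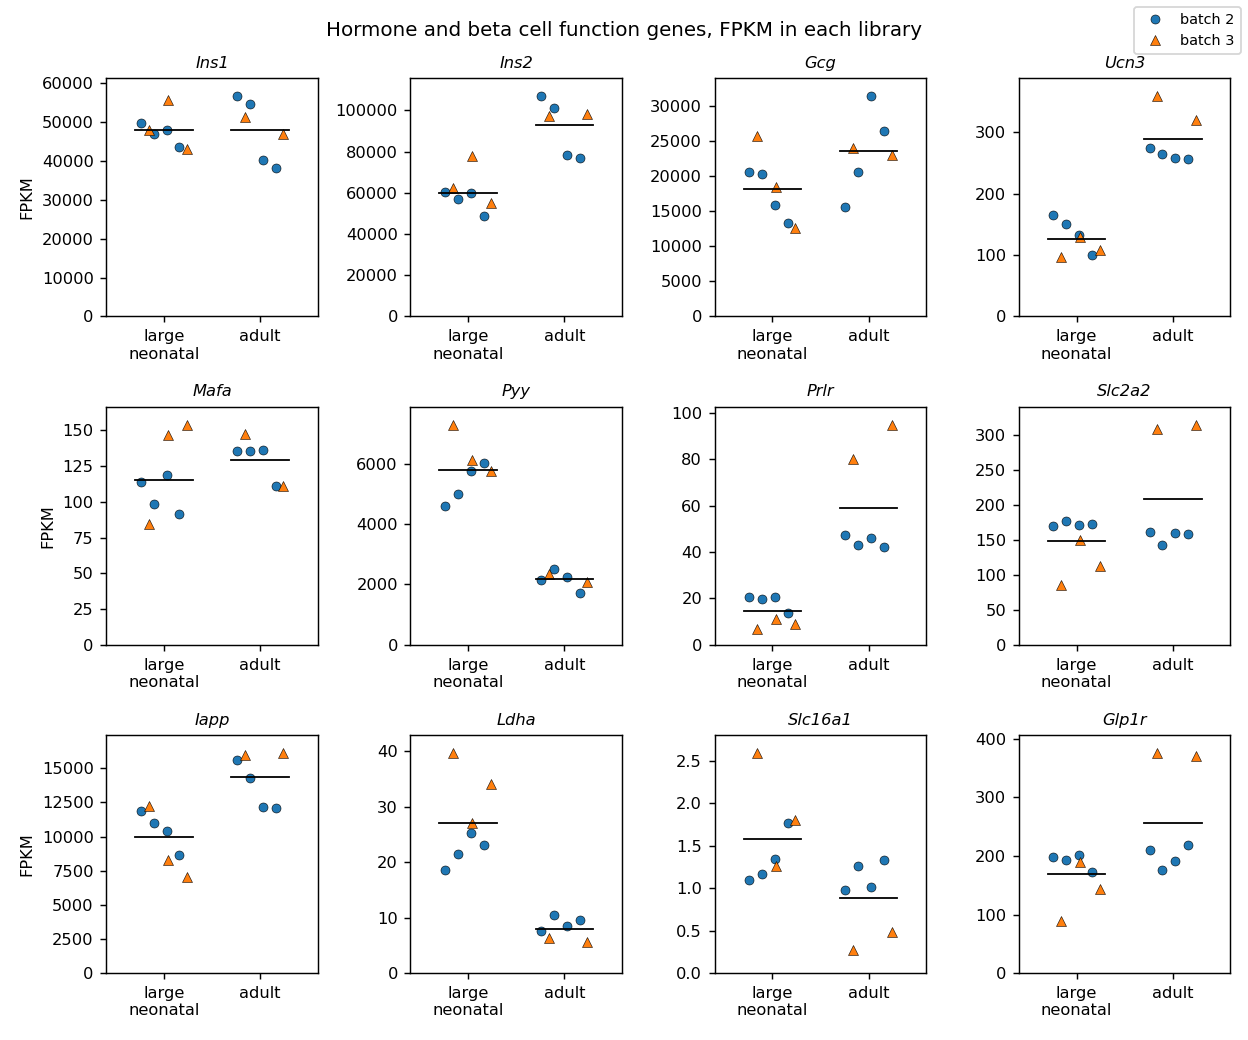
FPKM of 12 hormone and β cell genes in each of the 7 large neonatal and 6 adult libraries, on linear axes from 0 (circles batch 2, triangles batch 3, lines group means). Ucn3, Pyy, Prlr and Ldha do not overlap between the groups. For Slc2a2 and Glp1r the adult libraries of batch 3, at 308 to 315 and 371 to 376 FPKM, lie above all others.

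Genes normally shut off in mature β cells, called disallowed, were higher in 19 of 20 cases and lower in none, with a median 1.12 above all genes. Both batches alone called 18 of them. Ldha, lactate dehydrogenase A, was at 18.6, 25.2 and 39.7 FPKM in large and 5.64, 8.09 and 10.5 in adult libraries, higher by 1.61 ± 0.18. Slc16a1, the lactate and pyruvate transporter MCT1, was low in both, at 1.10, 1.35 and 2.59 FPKM against 0.269, 1.00 and 1.33. Its call (0.47, adjusted p = 0.0222) was lost in batch 2 alone, after median-of-ratios rescaling and without adult replicate 5 or 6 (0.34 and 0.40), and quantile normalization gave -0.03. Igfbp4, Mgst1 and Cxcl12, disallowed genes that other cells of the islet express, were higher by 2.86, 2.43 and 2.07. Mgst1 was at 52.9 FPKM in large replicate 14 and at most 14.4 in the other large libraries. Markers of mesenchymal and endothelial cells were higher beside these genes, and their part in the result was not tested.

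Glucose handling had no common direction. Of 25 genes of uptake and glycolysis 11 were higher and 5 lower, with a median equal to that of all genes (0.00), and 8 and 9 after median-of-ratios rescaling. Slc2a2, the GLUT2 transporter, was 170 to 177 FPKM in large and 143 to 162 in adult libraries of batch 2, but 85.7 to 150 and 308 to 315 in batch 3. It was called higher in the first alone (0.15) and lower in the second (-1.45). Eno2, the neuronal enolase, differed by -1.47 ± 0.10 and Pfkfb2 by -0.82 ± 0.17, neither with overlap. Aldoc was higher by 0.82.

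Fuel entry into mitochondria showed clearer members. Pdk4, the kinase that blocks pyruvate dehydrogenase, ran from 24.8 through 37.6 to 41.3 FPKM in large and from 2.94 through 5.19 to 13.6 in adult libraries, higher by 2.41 ± 0.22. The groups did not overlap. Glud1, glutamate dehydrogenase, and Slc25a10, the dicarboxylate carrier, were higher by 0.98 and 1.12. Got1, part of the malate-aspartate shuttle, differed by -0.93 ± 0.13. In the list of 28 pyruvate and shuttle genes 14 were higher and 4 lower, and 10 and 8 after median-of-ratios rescaling. Of 49 nuclear genes of the respiratory chain 39 were higher and 2 lower, with a median 0.33 above all genes. The counts fell to 24 higher and 3 lower after median-of-ratios rescaling. Atp5o (1.07) and Uqcrc1 (0.80) did not overlap, and both were highest in large replicate 14.

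Fatty acid oxidation was raised in 19 of 26 genes and lowered in 4, with a median 0.38 above all genes. Cpt1a, the gate for fatty acids into mitochondria, ran from 31.1 to 43.0 FPKM in large libraries around a median of 36.9, and had a median of 13.4 in adult ones without overlap, higher by 1.28 ± 0.12. Acot1 (1.60), Acaa2 (1.16) and Etfb (1.12), enzymes of the same route, were higher without overlap. Acsl4, which activates polyunsaturated fatty acids, differed by -0.63 ± 0.06.

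Ribosomal protein genes were raised by small amounts. Of 81 cytosolic ones 60 were higher and none lower, with list medians of 0.32 in batch 2 and 1.11 in batch 3. Median-of-ratios rescaling left 30 higher and 2 lower. Rplp2 was at 289, 354 and 929 FPKM in large and 154, 218 and 243 in adult libraries, and its 929 belonged to replicate 14. Rpl29 was higher by 0.97 ± 0.14. Of 77 mitochondrial ribosomal genes 45 were higher and none lower, and 19 and 4 after that rescaling. Mrpl18 was higher by 0.90.

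Ion channels of the β cell differed one by one. Kcnj11 and Abcc8, the subunits of the ATP-sensitive potassium channel, were at medians of 46.1 and 210 FPKM in large and 50.6 and 215 in adult libraries. Neither was called as deposited (-0.11, adjusted p = 0.245 and -0.15, adjusted p = 0.342). Kcnj11 was called lower under each of the 3 rescalings (-0.23 to -0.33), and Abcc8 after median-of-ratios rescaling (-0.37). In the list of 24 KATP, calcium and sodium channel genes 9 were lower and 6 higher, with a median 0.24 below all genes (-0.24). Median-of-ratios rescaling gave 11 lower and 3 higher. Batch 2 alone called 6 lower and 10 higher, and batch 3 alone 10 lower and 2 higher. Trpm5, a cation channel, was at 9.46, 14.3 and 15.1 FPKM against 25.6, 32.5 and 45.3, a difference of -1.34 ± 0.15. Cacnb2, a calcium channel subunit, and Atp2a2, the calcium pump of the endoplasmic reticulum, differed by -0.79 and -0.67. Itpr3, a calcium release channel, was higher by 1.07 ± 0.17, with 1.41 in batch 2 and 0.51 in batch 3, where it was not called. Among 19 other potassium channel genes 6 were higher and 6 lower, and 3 and 8 after median-of-ratios rescaling. Kcnq1 was at 3.32, 6.18 and 7.10 FPKM against 0.510, 0.717 and 1.98, higher by 1.64 ± 0.12, and Kcnk16 of the TALK-1 channel was higher by 0.86. Kcnip1, a channel regulator, differed by -0.96.

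Receptors for hormones and transmitters were higher in 13 and lower in 5 of 25 genes, near the shares over all genes, with a median 0.40 above all genes. Batch 3 alone called 8 higher and 5 lower. Glp1r, the receptor of the incretin GLP-1, had 173 to 202 FPKM in large and 176 to 220 in adult libraries of batch 2, while in batch 3 the lowest large library had 89.6 and the adult ones 371 to 376. Its call (-0.58, adjusted p = 0.0433) was lost without any of 7 libraries, among them adult replicates 5 (-0.43) and 6 (-0.44). Calcrl, a receptor subunit for adrenomedullin also found in vessels, was higher by 1.81 and Ptger3, a prostaglandin receptor, by 1.36. Sstr1, a somatostatin receptor, was at 2.21, 2.35 and 2.76 FPKM against 0.201, 0.300 and 0.537 and was higher by 1.34 ± 0.07.

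Of 37 granule and exocytosis genes 10 were higher and 12 lower, with a median 0.26 below all genes (-0.26). Median-of-ratios rescaling gave 6 higher and 18 lower. Syt4, the synaptotagmin whose rise makes β cell secretion glucose-sensitive in mice, was at 7.28, 9.57 and 16.0 FPKM in large and 47.7, 79.3 and 87.5 in adult libraries. It differed by -2.47 ± 0.11 (adjusted p = 4.44e-10), the largest fall of the list, and the groups lay far apart in both batches. Some genes of the fusion machinery were higher. Stx1a, syntaxin 1A, ran from 8.55 through 10.5 to 13.0 FPKM against 3.17, 4.08 and 4.85, higher by 1.18 ± 0.08. Doc2b, a calcium sensor of exocytosis, was higher by 1.25. Chgb, a granule protein, was higher by 0.59 ± 0.12, with 0.81 in batch 2 and 0.22 in batch 3.

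Extracellular matrix genes were higher without exception. All 43 collagen, laminin and elastic fibre genes kept were called higher, with a median 2.26 above all genes. Col4a1 and Col4a2, collagens of the basement membrane, were at 276, 371 and 419 and at 155, 217 and 238 FPKM in large libraries. In adult ones they were at 32.1, 39.5 and 45.1 and at 19.3, 23.9 and 28.6. They were higher by 3.13 ± 0.11 and 3.03 ± 0.12. Fibrillar collagens followed, with Col3a1 at 63.3, 103 and 248 FPKM against 7.41, 10.6 and 20.6 (3.00 ± 0.20) and Col1a1 higher by 2.93 ± 0.31. Eln, elastin, varied most: it was 1411.1 FPKM in large replicate 16, 31.0 in the lowest large library, and 1.00 to 4.05 in adult ones. Its difference of 5.29 ± 0.71 was not called in batch 3 alone. Postn, periostin, was higher by 3.08 and was also highest in replicate 16.

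Markers of blood vessels were all higher too, 18 of 18, with a median 1.46 above all genes. Aplnr, a receptor of sprouting vessels outside that list, was at 35.9, 43.1 and 55.6 FPKM in large and 0.468, 0.857 and 2.13 in adult libraries. It was higher by 4.43 ± 0.14. Cldn5, Cdh5 and Pecam1, junction proteins of the endothelium, were higher by 3.03, 2.50 and 2.00. Kdr, the main receptor of the vessel growth factor, differed less (1.12 ± 0.17) and overlapped. Vegfa, the gene of that factor, was at 96.6, 110 and 124 FPKM in large and 104, 112 and 117 in adult libraries, with no difference called (-0.00, adjusted p = 0.993), although median-of-ratios rescaling called it lower (-0.22, adjusted p = 0.0341). Red cell genes were higher as well: Hbb-bs, a β globin, ran from 259 through 417 to 719 FPKM against 4.44, 19.7 and 68.0, higher by 4.53 ± 0.44. Hba-a2 differed by 4.22 and Alas2, which serves heme synthesis in red cells, by 2.57. Globin copies are nearly identical, and reads may be split between them.

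All 19 mesenchymal markers kept were higher, with a median 1.88 above all genes. Glia and ducts were less uniform. Of 10 Schwann cell and glial markers 6 were higher and 1 lower: Sox10, their defining factor, was at 2.12, 3.40 and 5.93 FPKM against 0.509, 0.706 and 1.17, and Fabp7 was higher by 2.14. Mbp, of mature myelin, was lower (-0.33), but by -0.67 in batch 2 and not in batch 3 (0.23). That call was lost without any single library of batch 2, with no batch term and with voom. Duct markers were higher in 6 of 9 genes and lower in none, against 42.7% higher over all genes, with a median 1.04 above all genes. Median-of-ratios rescaling gave 4 higher and 1 lower. Krt19 varied from 3.69 to 43.5 FPKM among large libraries, and Spp1 was at 259 FPKM in large replicate 14. None of 13 acinar markers was called, although their median lay 1.08 above that of all genes, and libraries of both groups spread widely.

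Signalling genes of developing tissue accompanied these cells. Of 21 Notch genes 17 were higher and none lower, with a median 1.02 above all genes. Mfng and Lfng, enzymes that tune Notch receptors, were higher by 2.41 and 1.85. Notch3, a receptor of vessel wall cells, and Heyl, a Notch target, were higher by 2.04 and 2.06. Notch3 was at 23.5, 26.6 and 46.2 FPKM against 5.13, 5.86 and 6.94, the highest in replicate 16. Of 30 TGF-β and BMP genes 18 were higher and none lower, with a median 0.41 above all genes, led by the receptor Tgfbr2 (2.37), the target Id4 (1.82) and the ligand Tgfb2 (1.57). Of 31 Wnt and planar polarity genes 22 were higher and 4 lower, with a median 0.44 above all genes. The receptor Fzd4 (1.58) and the polarity protein Vangl1 (1.57) were higher. Wnt4 went the other way: it was at 18.4, 22.2 and 24.2 FPKM in large and 44.8, 46.6 and 51.8 in adult libraries, a difference of -1.11 ± 0.08 that was alike in both batches (-1.11 and -1.12).

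Growth factor signalling through insulin and IGF showed 11 of 23 genes higher and 3 lower, with a median 0.02 above all genes, and 9 and 6 after median-of-ratios rescaling. Igf1 was at 2.55, 3.76 and 4.75 FPKM against 0.103, 0.314 and 2.33, higher by 1.47, with 1.86 in batch 2 and 0.83 in batch 3. Igfbp2 was at 25.1 FPKM in large replicate 16 and at 0.599 to 3.63 in the other large libraries. Tsc1, a brake on mTOR, differed by -0.66 ± 0.10.

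Neuronal development genes, many of which endocrine cells also use, were higher in 22 and lower in 5 of 33, with a median 0.75 above all genes. Stmn1, which loosens microtubules, ran from 65.3 through 82.5 to 135 FPKM in large and from 3.84 through 6.40 to 6.81 in adult libraries, higher by 3.69 ± 0.16. Dpysl3 and Tubb2b, of growing axons, were higher by 3.16 and 2.80. A synaptic adhesion gene lay on the other side: Cntnap2, outside the list, was at 0.873, 0.959 and 1.63 FPKM against 14.6, 16.4 and 20.9, a difference of -3.06 ± 0.12. The groups did not overlap.

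Antigen presentation was among the largest falls. Of 6 MHC class II genes 5 were lower, with a median 3.20 below all genes (-3.20), -3.03 in batch 2 and -3.08 in batch 3, and the test of a difference between batches passed in none. Cd74, the invariant chain, was at 6.64, 8.87 and 18.8 FPKM in large and 64.4, 88.0 and 106 in adult libraries. H2-Eb1 was at 1.12, 1.62 and 4.76 against 20.2, 28.8 and 34.5 and differed by -3.27 ± 0.20 (adjusted p = 6.2e-09). H2-Aa and H2-Ab1 differed by -3.24 and -3.03, and no library of one group reached the other. Of 12 macrophage markers 5 were higher, close to the 42.7% over all genes, and 1 lower. None was called higher in both batches, and quantile normalization gave 2 higher and 3 lower. The markers had summed levels of 72.4 to 119 FPKM in large and 71.5 to 105 in adult libraries. Cx3cr1, a receptor of resident macrophages, was higher by 1.13 (1.76 in batch 2 and 0.09 in batch 3) and Tyrobp by 0.76, while C1qa, a complement subunit, differed by -0.30. Genes of MHC class I and the interferon response were lower in 12 and higher in 2 of 28, against 17.9% lower over all genes, with a median 0.42 below all genes (-0.42). After median-of-ratios rescaling 21 were lower, and batch 3 alone called 5 lower and 3 higher. Ifit1, an interferon-induced gene, differed by -1.61 ± 0.23 and Stat2 by -0.83, while Bst2 was higher by 1.14. Batch 3 alone did not call Ifit1 (-0.81, limma adjusted p = 0.0816).

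The batches disagreed in stress genes, for which the adult libraries of batch 2 stood out. Hspa1a, an inducible heat shock protein, was at 2.48 to 6.06 FPKM in large and 173 to 303 in adult libraries of batch 2. In batch 3 it was at 5.51 to 17.3 and 1.80 to 4.60. The difference was -5.60 and 1.66, and that between batches passed (adjusted p = 1.76e-06). Hspa1b, its near-identical copy, behaved likewise (-6.09 and 1.76). The call of Hspa1a over both batches (-2.88, adjusted p = 0.0407) was lost without any single library of batch 2. Of 23 heat shock genes 11 were lower and 1 higher, with list medians of -1.42 and 0.22, and for 21 the batches differed. Hsph1 was lower in both batches alone (-4.06 and -0.58). Dnaja1 was at 211 FPKM as the adult median and 28.6 as the lowest adult library, with -2.39 and 0.22.

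Genes that ATF4 switches on when amino acids or folding capacity run short gave 16 lower and none higher of 28, with list medians of -1.12 in batch 2 and 0.22 in batch 3. Ddit3, which encodes CHOP, was at 14.3 to 22.9 FPKM in large and 247 to 294 in adult libraries of batch 2, but 15.7 to 32.5 and 14.9 to 18.6 in batch 3. A smaller set held in both batches. Chac1, which degrades glutathione, was at 1.53, 1.69 and 5.21 FPKM in large and 7.92, 86.7 and 101 in adult libraries, lower in batch 2 (-5.01) and batch 3 (-1.69). Trib3 (-4.61 and -1.32) and Nupr1 (-3.60 and -1.85) were alike. Aldh1l2, a mitochondrial folate enzyme, was at 0.561, 0.714 and 0.767 FPKM against 8.88, 11.0 and 13.9, and differed by nearly the same amount in both (-2.90 and -2.71). Asns, asparagine synthetase, had medians of 26.2 FPKM in large and 87.8 in adult libraries, without overlap, and also held (-1.64 and -1.24).

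The composite element of ATF4 and C/EBP was searched as TGATGCAA or TGATGAAA on both strands of the 250 bases before the start. Among the genes searched for the division elements, it stood in 5 of the 20 of this list (25.0%) and in 0.944% of all. Of those 5, the 3 with the largest differences are shown, 250 bases each, with the match in capitals (TTGCATCA is TGATGCAA on the other strand).
Chac1, chr2:119350992-119351241, plus strand: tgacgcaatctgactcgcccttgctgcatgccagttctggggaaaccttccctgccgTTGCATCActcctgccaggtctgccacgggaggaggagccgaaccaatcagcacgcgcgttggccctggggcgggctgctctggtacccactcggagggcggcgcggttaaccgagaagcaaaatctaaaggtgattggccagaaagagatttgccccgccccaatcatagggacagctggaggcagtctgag
Nupr1, chr7:126625471-126625720, minus strand: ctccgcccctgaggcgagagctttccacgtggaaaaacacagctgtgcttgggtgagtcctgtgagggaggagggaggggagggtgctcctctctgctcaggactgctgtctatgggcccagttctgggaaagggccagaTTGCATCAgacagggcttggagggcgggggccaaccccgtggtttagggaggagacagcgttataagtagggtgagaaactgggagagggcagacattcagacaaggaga
Asns, chr6:7693210-7693459, minus strand: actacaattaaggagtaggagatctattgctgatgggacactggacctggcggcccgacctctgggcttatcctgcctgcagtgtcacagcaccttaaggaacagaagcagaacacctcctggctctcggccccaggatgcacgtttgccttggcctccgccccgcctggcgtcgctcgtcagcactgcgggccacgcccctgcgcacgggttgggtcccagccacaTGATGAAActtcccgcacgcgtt

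Chaperones and folding enzymes of the endoplasmic reticulum were lower in 16 and higher in none of 30, with a median 0.54 below all genes (-0.54). Hspa5, the chaperone BiP, was at 1810 to 2400 FPKM in adult libraries of batch 2 and 573 to 758 in those of batch 3, with 632 to 1120 and 703 to 922 in large ones. Its call (-0.65, adjusted p = 0.0373) was lost without any single library of batch 2. Herpud1, of the degradation machinery, differed by -2.42 and 0.15. Dnajb9 held, with -1.07 and -0.92. The metallothioneins Mt1 and Mt2, which bind zinc and copper, differed by -3.19 and -3.88. In adult libraries Mt1 was at 541 to 660 FPKM in batch 2 and 86.3 to 92.1 in batch 3. Large libraries held 24.3 to 61.6 FPKM of it. Mt2 was at 771 to 955 FPKM in the adult libraries of batch 2 and 56.5 to 66.4 in those of batch 3, and at 14.1 to 65.9 in large libraries, with -5.66 and -0.92. Batch 3 alone did not call Mt2 (limma adjusted p = 0.163). Of 30 antioxidant and metallothionein genes 16 were higher and 6 lower, with a median 0.05 above all genes, and 10 and 9 after median-of-ratios rescaling.

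Immediate early genes, which cells switch on within minutes of a stimulus, also had a lower difference in batch 2 than in batch 3. In all 28 the batches differed, with list medians of -0.83 in batch 2 and 3.10 in batch 3, and 8 were called higher over both. Batch 2 alone called 16 lower and 4 higher, and batch 3 alone called all 28 higher. Fosb, named after its values were seen, was among those lower in batch 2 (-2.19 in batch 2 and 4.23 in batch 3). Fos was at 668 to 991 FPKM in large and 329 to 735 in adult libraries of batch 2, and at 773 to 1580 against 34.3 to 38.8 in batch 3. Its difference was 0.59 and 4.95. Egr1 (0.36 and 4.41), Ier2 (0.35 and 4.68) and Cyr61 (0.84 and 5.39) had small differences in batch 2 and large ones in batch 3, and the calls of Egr1 and Ier2 were lost without adult replicate 5 (1.45 and 1.53) or 6 (1.48 and 1.54). Klf2, a factor of flow-exposed endothelium, was higher in each batch (1.40 and 3.57). How islets of each batch were handled before lysis is not given in the sources used here, and its part was not tested.

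**Figure D5:**
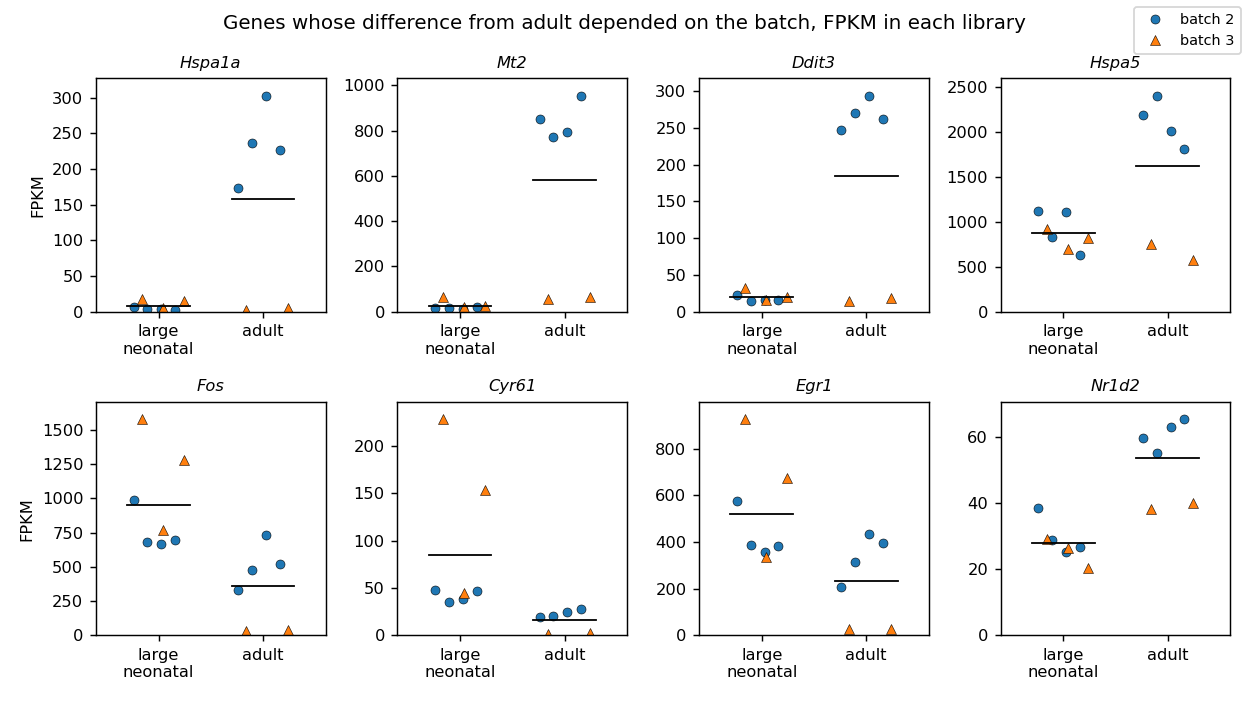
FPKM of 8 stress, immediate early and clock genes in each library, on linear axes from 0 (circles batch 2, triangles batch 3, lines group means over both). Adult libraries of batch 2 hold 173 to 303 FPKM of Hspa1a and those of batch 3 hold 1.80 to 4.60, while for Fos, Cyr61 and Egr1 the adult libraries of batch 3 are the lowest of all.

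Sterol and clock genes shared part of this split. Of 29 genes of cholesterol synthesis and uptake 18 were lower and 3 higher, with list medians of -0.71 in batch 2 and -0.01 in batch 3. Hmgcs1, an early enzyme of the route, was at 25.3 to 29.6 FPKM in large and 113 to 173 in adult libraries of batch 2, while in batch 3 the groups overlapped, with adult levels of 20.0 to 23.2. Insig1, the sterol sensor (-2.25 and -1.01), and Msmo1 (-2.34 and -0.77) were lower in both batches, while Mvk, mevalonate kinase, was higher by 0.74 ± 0.10. Of 18 clock genes 8 were lower and none higher, with -0.97 and -0.03. Nr1d2, a repressor of the clock, differed by -1.02 and -0.63, Rora by -0.87 and -0.76 and Bhlhe41 by -1.22 and -0.54. The hour of collection is not given in the sources used here.

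Small neonatal islets of the same batches gave 5 libraries, so islet size could be compared at the same age. In a fit with all 3 groups no gene was called between large and small neonatal islets (0.00% of 12890, limma). An unadjusted p under 0.05 was reached by 1251 (9.71%). Some large and small libraries share a number in their library names. Whether these came from the same islet preparation is not given in the sources used here, and the fit did not pair them. The lack of calls therefore does not show that size made no difference. With all 26 libraries, batch 1 included, 2184 genes differed, 1583 higher and 601 lower in large islets. Without large replicates 14 and 16, Fcgr3, an antibody receptor of macrophages, was the only call (0.56, adjusted p = 0.0294).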

How the data were processed

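RNA was sequenced from 26 islet libraries, of which 13 enter the main comparison and 5 more, from small neonatal islets, a second one. The authors deposited FPKM per gene and library, one column each. STAR 2.6a, HTSeq 0.11.1, edgeR and the mouse build mm10 are named per the submitters' processing notes, without role or order; gene lengths, filters and strand setting are not given in the sources used here. The same deposited table holds the authors' own comparison of all neonatal with adult libraries, as log2 fold changes and log2 mean expression, an F score, p-values and false discovery rates, per the file headers, and these columns were not used.

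Genes with at least 1 FPKM in at least 6 of the 13 libraries were fitted as log2(FPKM + 1) with limma 3.58.1 (R 4.3.3, statmod 1.5.0), group and batch as terms, with trend and robust moderation and Benjamini-Hochberg adjustment over all genes tested. The same fit with a group by batch term tested the difference between batches, and shares of FPKM were compared by exact permutation of libraries within batches. The fit was also run on simulated data, whose outcome is not reported here. Fragment totals were recovered from the smallest steps of the FPKM. Their number limits the precision of low genes, and it covers counting error only.

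Members and gene lists were chosen with earlier results of these data known. Named genes were the 12 largest rises and 12 largest falls with no overlap and one direction in both batches, up to 4 called members of each list with the largest change and the largest opposite one, genes fixed by name, and the genes with the largest batch differences. Cdc20, Mcm6, Dtl and Asns were added for their promoters after their values were seen. Names turned into dates by a spreadsheet were left out. Of 12890 names, 12649 were found in GENCODE M21, which gave coordinates. Alternatives covered pseudocount, filter, scaling, batch term, moderation, libraries in the fit and leaving out each library. An edgeR test on recovered counts was listed but not run, and limma voom on those counts was added after the data were seen, as was leaving out large replicates 14 and 16 together. Some genes are not reported here.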

Additional observations from a re-analysis of the deposited data

Results flagged for a closer look

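Single libraries far from the rest of their group were looked for in 368 sets of libraries (named genes in each group), where chance flags about 1 in 20, and 40 were found. Large replicate 14 held the highest large neonatal FPKM of the hormone genes Ghrl (427) and Gast (27.4). It was highest as well for the metabolic genes Aldoc (12.9), Atp5o (195), Uqcrc1 (93.0), Acot1 (7.92), Etfb (135) and Mgst1 (52.9), and for the ribosomal genes Mrpl18 (27.7), Rplp2 (929) and Rpl29 (373). Further FPKM highest in that library were those of Mycn (6.06), Hist1h3c (217), Spp1 (259), Mt1 (61.6), Mt2 (65.9), Chac1 (5.21), Nupr1 (12.5) and Ier2 (278). It held the lowest FPKM of Abcc8 (149), Itpr3 (19.7) and Kdr (30.3).

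Large replicate 16 held the highest FPKM of the matrix genes Eln (1411), Postn (129) and Col1a1 (323), of the Notch genes Heyl (20.7) and Notch3 (46.3), and of Calcrl (28.5), Igfbp2 (25.1) and Tgfb2 (15.0). Its FPKM of Isl1 (36.2) and Insig1 (17.5) were the lowest. Large replicate 18 was highest in 4 MHC class II genes, with 4.76 FPKM of H2-Eb1, 8.28 of H2-Aa, 18.8 of Cd74 and 5.55 of H2-Ab1, all below every adult library. Pdk4 was lowest in large replicate 19 (24.8 FPKM). Among adult libraries, replicate 5 was highest for Lfng (1.46 FPKM) and Bst2 (9.82), and replicate 6 for Cpt1a (22.01).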

How the results depend on the processing

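Among 181 named genes, 4728 of 4859 values under the alternatives kept direction and side of the threshold, 83 lost the call, 35 gained it and 13 turned. No paired analysis was possible because large neonatal and adult libraries share no replicate numbers. The stricter filter left 3656 genes higher, 867 of them by at least 1, and 1913 higher in both batches. Median-of-ratios rescaling gave 4091 lower, 402 by at least 1 and 1926 lower in both batches. Quantile normalization gave 3620 higher (883 by at least 1) and 4416 lower (430 by at least 1), with 2000 higher and 2302 lower in both batches. Without the 100 highest genes 350 were lower by at least 1 and 1676 lower in both batches. Lower by at least 1 were 444 genes in batch 2 alone, 384 in batch 3 alone and 368 with voom. Leaving out 1 library gave 7366 to 8356 calls, 1495 to 3768 genes higher and 311 to 1236 lower in both batches, and a glucagon difference of -1.60 to -0.85 percentage points. Large against small islets gave 2184 calls with all 26 libraries and 1 without large replicates 14 and 16. In batch 3 alone the insulin share differed by -8.67 and that of the 100 highest genes by -6.95, neither passing (exact p = 0.2 and 0.1). Genes that turned were Ins2 (0.00) and Slc16a1 (-0.03) with quantile normalization, Slc2a2 (0.15) and Atm (0.42) in batch 2 alone, and, in batch 3 alone, Ffar1 (-0.07), Cdkn1a (1.68), Mbp (0.23), Hspa1a (1.66), Hspa1b (1.76), Dnaja1 (0.22), Ddit3 (0.37), Hspa5 (0.30) and Herpud1 (0.15). The cause was not tested. The edgeR alternative was not run. With 2 adult libraries in batch 3, results within that batch are the least certain.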
